A study of Mus with 9 samples.

Results

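Ucp1, Cidea, Adipoq, Plin1, Cfd, Retn, Cidec, Car3, Lipe and Fabp4 are genes that fat cells express, and they are 10 of the 54532 genes in the deposited table of mouse kidney RNA. They were chosen by name, for how their measured levels moved in 21 mo/O304 against 21 mo kidneys in these same libraries. Their differences in that comparison are therefore given as a description, without a p-value. The other comparisons share libraries with it, so the values of the 10 genes in them are set out in the same way.

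Kidney RNA was sequenced from 3 groups of male C57BL/6 mice, 3 animals to a group and 1 library to an animal. All mice had 1 kidney removed at 18 months of age. The 18 mo mice were killed 1 week after surgery, the 21 mo mice then received saline into the peritoneum every day for 12 weeks, and the 21 mo/O304 mice received O304, an activator of the energy-sensing kinase AMPK, at 10 mg/kg/day by the same route and for as long. Age, time since surgery and injections thus all differed between the 18 mo mice and the other groups. P-values given for other genes measure the spread between these mice. How the kidneys were trimmed of surrounding fat was not given in the sources used here.

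White adipocytes keep their triglyceride in a single large droplet, with perilipin 1 as a coat protein and CIDEC as a fusion protein. They secrete adiponectin, adipsin, resistin and leptin. Brown adipocytes hold many small droplets among dense mitochondria and turn fuel into heat through the uncoupling protein UCP1. Fat wraps the kidney, fills the sinus at its hilum and adjoins the adrenal gland. Other cells also make some of the products named here, such as FABP4 in capillary endothelium and macrophages, carbonic anhydrase 3 in skeletal muscle and hormone-sensitive lipase in the adrenal cortex.

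Between 15636378 and 18396725 reads were counted on genes in each library, so that 1 count was worth 0.0458 to 0.0669 CPM (reads set against the whole library) after the libraries were scaled to each other by TMM factors. The summed level of 10 kidney markers lay between 30682 and 39704 CPM in 7 libraries, and at 12372 and 4227 CPM in replicates 2 and 3 of the 21 mo group. Replicate 3 of that group also had the highest sum of 7 macrophage markers, 3575 CPM against 299 to 1170 CPM in the others. In edgeR's quasi-likelihood test with an adjusted p under 0.05, 0 of 15902 tested genes passed in 21 mo/O304 against 21 mo (0% higher, 0% lower), and 3289 (20.7%) had an unadjusted p under 0.05. DESeq2 called 983 genes in that comparison (6.45% of the 15245 it gave an adjusted p) and limma voom with sample quality weights called 6528 (41.1%). In 21 mo against 18 mo the edgeR test called 3 genes higher (0.0189%) and 0 lower (0%), with 4147 at an unadjusted p under 0.05, and none of the 3 was among the 10 genes. In 21 mo/O304 against 18 mo it called 0 higher (0%) and 0 lower (0%), with 1536 at an unadjusted p under 0.05, against 233 called by DESeq2 and 415 by limma voom. The median log2 fold change of all tested genes was −0.02, 0.03 and 0.00 in these comparisons.

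Of the 10 genes, 8 passed the filter on low counts, and Cidea and Ucp1 did not. The group that was high carried Adipoq, Retn and Plin1 through the filter, so no count over those that passed is used as support. The 10 genes held 53.6 to 148 CPM together in the 6 libraries without O304, and 448, 170 and 356 CPM in replicates 1, 2 and 3 of 21 mo/O304. Of the summed levels, those of the 3 O304 libraries were thus the highest, unevenly between mice, and the brown fat gene Ucp1 had 1 count among them. The 18 other white fat genes listed further on did not share this in sum. Most of that sum was Cebpa, Slc2a4 and Pde3b, which untreated kidneys also contained, so it hardly reflects scarce genes such as Lep.

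Adipoq encodes adiponectin, the most abundant hormone of fat, and lies on chromosome 16 from 23146536 to 23158028 (plus strand, GRCm38). Its level was 0, 0 and 1.41 CPM in replicates 1 to 3 of 18 mo, 0.0669, 0 and 0.504 CPM in 21 mo, and 21.6, 1.97 and 15.1 CPM in 21 mo/O304. All O304 libraries lay above all others, and replicate 2 lay close to the highest untreated library, replicate 3 of 18 mo. The group means were 0.471 ± 0.816, 0.190 ± 0.274 and 12.9 ± 10.01 CPM (SD, n = 3). Summed over groups, 642 counts under O304 stood against 12 in 21 mo, a ratio of 58.6 after scaling, with a 95% interval of 33.3 to 114. Such intervals, from an exact conditional binomial method, cover counting error only and not the spread between mice. The fitted log2 fold change of Adipoq was 5.90 (SE 1.54), and it was 8.40 without replicate 3 of 21 mo, which held 11 of those 12 counts, and 5.30 without replicate 1 of 21 mo/O304.

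Cfd encodes adipsin, a serine protease of the alternative complement pathway, and lies on chromosome 10 from 79890853 to 79892655 (plus strand). The libraries held 0, 0 and 4.19 CPM of Cfd in 18 mo, 0.401, 1.08 and 3.62 CPM in 21 mo, and 78.4, 4.23 and 76.7 CPM in 21 mo/O304. Replicate 2 of the O304 group did not stand apart from replicate 3 of 18 mo, with 71 counts against 74, whereas replicates 1 and 3 had 1349 and 1204 counts. Mean levels were 1.40 ± 2.42, 1.70 ± 1.70 and 53.1 ± 42.3 CPM (SD, n = 3), and the log2 fold change in 21 mo/O304 against 21 mo was 4.90 (SE 1.49), or 6.12 without replicate 3 of 21 mo, which held 79 of the 104 counts of its group. Summed counts were 2624 against 104, a ratio of 27.6 (22.7 to 33.9).

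Retn encodes resistin, a cysteine-rich hormone of mouse white fat, and lies on chromosome 8 from 3655770 to 3660110 (plus strand). Its counts were 0, 0 and 4 in 18 mo, 0, 3 and 21 in 21 mo, and 240, 9 and 178 in 21 mo/O304. The groups overlapped, since replicate 3 of 21 mo, at 0.962 CPM, exceeded replicate 2 of the O304 group, at 0.536 CPM. The summed ratio of Retn was 19.5 (12.9 to 30.7) against 21 mo and 108 (41.7 to 397) against 18 mo, where 4 counts make the lower bound the firmer figure. Its fitted log2 fold change against 21 mo was 4.39 (SE 1.33), or 6.45 without replicate 3 of 21 mo and 3.85 without replicate 1 of 21 mo/O304.

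Among the genes of the lipid droplet, Plin1 encodes perilipin 1, which coats the droplet and gates lipolysis, and lies on chromosome 7 from 79720218 to 79732903 (minus strand). Counts of Plin1 were 0, 1 and 18 in 18 mo, 1, 2 and 2 in 21 mo, and 217, 19 and 84 in 21 mo/O304. The lowest O304 library, replicate 2 with 1.13 CPM, was near replicate 3 of 18 mo with 1.02 CPM, and every 21 mo library stood at or under 3 counts. The summed ratio was 70.0 (29.7 to 217) against 21 mo and 17.0 (10.7 to 28.6) against 18 mo, and the fitted log2 fold changes were 6.01 (SE 1.37) and 4.08 (SE 1.17). Without replicate 1 of 21 mo/O304 they were 5.02 and 3.11.

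Cidec, whose product drives the fusion of droplets in white fat, lies on chromosome 6 from 113424634 to 113435760 (minus strand). Its level was 0.805, 0.0616 and 1.64 CPM in 18 mo, 0.937, 1.36 and 0.916 CPM in 21 mo, and 20.5, 2.21 and 13.2 CPM in 21 mo/O304. In contrast to Adipoq and Plin1, Cidec was counted at least 14 times in each 21 mo library, and the O304 libraries were still all higher. The log2 fold change against 21 mo was 3.47 (SE 0.92), ranging from 2.81, without replicate 1 of 21 mo/O304, to 3.95 when single libraries were left out.

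Lipe encodes hormone-sensitive lipase, which hydrolyses diglyceride when catecholamines act on fat, and lies on chromosome 7 from 25379527 to 25398710 (minus strand). Lipe was present in every kidney, at 17.0, 21.0 and 17.8 CPM in 18 mo, 15.7, 14.4 and 15.2 CPM in 21 mo, and 42.4, 28.2 and 28.8 CPM in 21 mo/O304. The O304 libraries lay above all others without overlap, and replicates 2 and 3 were level, unlike for the secreted genes. Its log2 fold change was 1.14 (SE 0.18) against 21 mo and 0.83 (SE 0.18) against 18 mo. The 12 adrenal markers summed to 2.81 to 6.55 CPM in the untreated libraries and 3.25 to 4.65 CPM under O304, and Cyp11b2, Nr5a1, Th, Dbh and Pnmt were at 0 in every library. The gene 4732471J01Rik overlaps Lipe on the other strand and B430212C06Rik overlaps Cidea, and the library kit named in the labels does not mark strand, so reads of such pairs cannot be told apart.

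Fabp4, which encodes a carrier of fatty acids in adipocytes and in capillary endothelium, lies on chromosome 3 from 10204088 to 10208576 (minus strand). It had 89.7, 46.0 and 73.5 CPM in 18 mo, 128, 52.5 and 30.1 CPM in 21 mo, and 147, 101 and 129 CPM in 21 mo/O304. Replicate 1 of 21 mo lay within the O304 range, so these groups overlapped, and the log2 fold change of 0.85 (SE 0.47) was 1.60 without that library and 0.49 without replicate 3 of 21 mo. Endothelium markers moved in part with it, since the summed level of the 7 was 360 to 580 CPM in 18 mo, 234 to 492 CPM in 21 mo and 435 to 747 CPM under O304. The highest endothelial sum of the O304 group was in replicate 2, where Fabp4 was lowest. The part of endothelium in the Fabp4 level was not tested.

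Car3 encodes carbonic anhydrase 3, a protein of adipocytes and slow muscle, and lies on chromosome 3 from 14863512 to 14872523 (plus strand). The libraries had 13.6, 18.2 and 38.2 CPM in 18 mo, 3.48, 8.70 and 2.06 CPM in 21 mo, and 110.5, 31.0 and 76.6 CPM in 21 mo/O304. Between the untreated groups every 21 mo library lay under every 18 mo library, and the log2 fold change of Car3 was −2.30 (SE 0.65). Against 21 mo the O304 libraries did not overlap and the log2 fold change was 3.94 (SE 0.68), with −3.11 and 4.73 when replicate 2 of 21 mo was left out, whereas against 18 mo it was 1.64 (SE 0.61) and replicate 3 of 18 mo exceeded replicate 2 of the O304 group. Of 12 skeletal muscle markers, Myh2, Myh4 and Tnnc2 were at 0 in every library, and the summed level of the list was 18.8 to 34.3 CPM in 18 mo, 2.29 to 25.8 CPM in 21 mo and 22.5 to 53.6 CPM in 21 mo/O304. Under O304 most of that sum was Pvalb, with 51.6, 29.0 and 21.3 CPM, which kidney distal tubules also make. In 21 mo Pvalb ranged from 0 to 24.5 CPM. The part of muscle in the Car3 level was not tested.

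Ucp1, the uncoupling protein that defines brown and beige fat and the 1 gene of the 10 that was not highest under O304, lies on chromosome 8 from 83290352 to 83298452 (plus strand), and its counts were 0, 0 and 6 in 18 mo, 1, 1 and 2 in 21 mo, and 0, 1 and 0 in 21 mo/O304. The single count under O304 against 4 in 21 mo gave a ratio of 0.274 with an interval of 0.00556 to 2.76. At this depth the counts thus allowed a fall as well as a rise of up to 2.76-fold. The library with the most Ucp1 was replicate 3 of 18 mo. Cidea, whose product enlarges droplets in brown and beige fat, lies on chromosome 18 from 67343564 to 67367794 (plus strand) and was counted 0, 0 and 7 times in 18 mo, 0, 0 and 0 times in 21 mo, and 14, 2 and 3 times in 21 mo/O304. With 21 mo set to a floor of 3 counts over the group, Cidea was at least 6.93-fold higher under O304, and its ratio to 18 mo was 2.73 (1.1 to 7.70). Of the 19 counts of Cidea under O304, 14 came from replicate 1, where Adipoq was highest too.

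**Figure D1:**
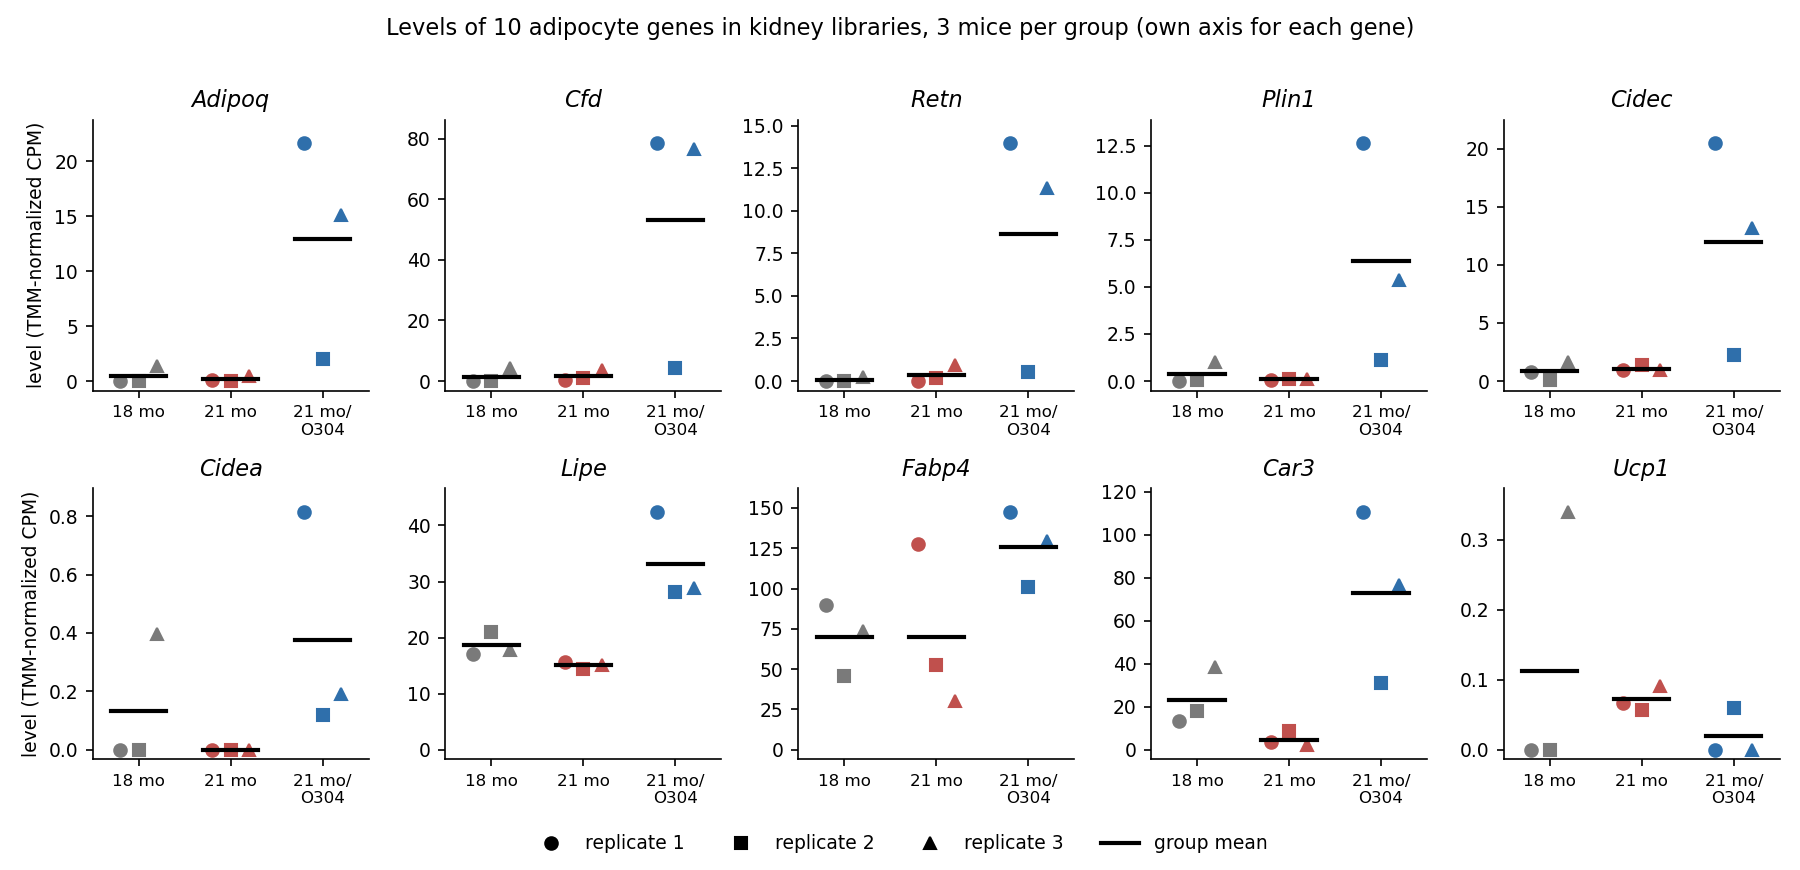
Level of each of the 10 genes in TMM-normalized CPM (vertical axes, linear and separate for each gene) in the 9 kidney libraries, by group; points are single mice, with the same marker for the same replicate number, and horizontal lines are group means. Replicates 1 and 3 of 21 mo/O304 stand far above the other libraries for Adipoq, Cfd, Retn, Plin1 and Cidec, while Ucp1 has its highest value, 0.339 CPM, in replicate 3 of 18 mo.

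Compared per length, with the deposited FPKM, Cfd had the highest level of the 10 genes under O304, 55.9 ± 44.5 FPKM (SD, n = 3). Fabp4 followed at 27.2 ± 5.05 FPKM and Car3 at 24.6 ± 13.5 FPKM, and these 3 did not differ beyond the spread between mice. Adipoq had 9.06 ± 7.03, Cidec 6.25 ± 4.80, Lipe 5.46 ± 1.32 and Retn 5.29 ± 4.37 FPKM, 4 neighbours whose spreads overlapped. All these genes were measured in the same 3 mice, so the spread between mice does not settle their order within a mouse. Plin1 at 1.33 ± 1.21, Cidea at 0.312 ± 0.318 and Ucp1 at 0.0118 ± 0.0204 FPKM closed the order. In 21 mo kidneys the order was another, with Fabp4 at 15.1 ± 11.03, Lipe at 2.48 ± 0.0990 and Cfd at 1.78 ± 1.77 FPKM. The length used for Fabp4, 4489 bases, is its whole span with introns, so its FPKM is understated beside genes whose exons alone were used.

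Adhering fat of 1 composition would add its genes in fixed proportion, so the order and the proportions across libraries were described. Of the 10 genes, 9 had their highest level of all libraries in replicate 1 of 21 mo/O304, and within the O304 group the same 9 ran in the order replicate 1, replicate 3, replicate 2. Among 20747 genes with at least 10 counts in all, 7.97% were highest in replicate 1 of the O304 group and 15.5% ran in that order. Outside the O304 group, 7 of the 10 genes were highest in replicate 3 of 18 mo. Within the O304 group the genes ranked the mice largely in 1 order, a pattern read from the libraries that also served to choose them. Some steps lay within counting error, such as replicate 1 over replicate 3 for Cfd and replicate 3 over replicate 2 for Lipe. In 21 mo no library led, since replicate 1 was highest for 3 genes, replicate 2 for 3 and replicate 3 for 4. Cidea, at 0 counts in each 21 mo library, is placed under replicate 1 there.

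The summed level of Adipoq, Cfd, Retn, Plin1 and Cidec was 0.805, 0.123 and 8.49 CPM in 18 mo, 1.47, 2.73 and 6.09 CPM in 21 mo, and 147, 10.1 and 122 CPM in 21 mo/O304. Replicate 2 of the O304 group thus lay close to the highest untreated library, and replicates 1 and 3 lay far above it. The sizes of the steps between O304 libraries were unequal. The level in replicate 1 was 26.0-fold (interval 13.5 to 57.6) that in replicate 2 for Retn and 18.5-fold (14.6 to 23.9) for Cfd. For Plin1 the same step was 11.1-fold (6.97 to 18.9), for Adipoq 10.999-fold (7.70 to 16.2) and for Cidec 9.28-fold (6.60 to 13.4). The intervals of Retn and Cfd did not meet that of Cidec, and those of the other pairs overlapped. Cidec also had 13 counts in replicate 1 of 18 mo, where Adipoq, Cfd, Retn and Plin1 had 0. A level of Cidec apart from the other genes would make its step smaller, and its size was not tested.

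Replicates 1 and 3 of the O304 group had the counts to set the proportions more closely. Cfd was level between them, with a ratio of replicate 1 to replicate 3 of 1.02 (0.946 to 1.11). Retn had 1.23 (1.01 to 1.5), Adipoq 1.43 (1.21 to 1.69), Cidec 1.55 (1.30 to 1.85) and Plin1 2.36 (1.83 to 3.07). The intervals of Cfd and Plin1 did not overlap, so the proportions of the fat gene transcripts differed between these libraries by more than counting error.

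**Figure D2:**
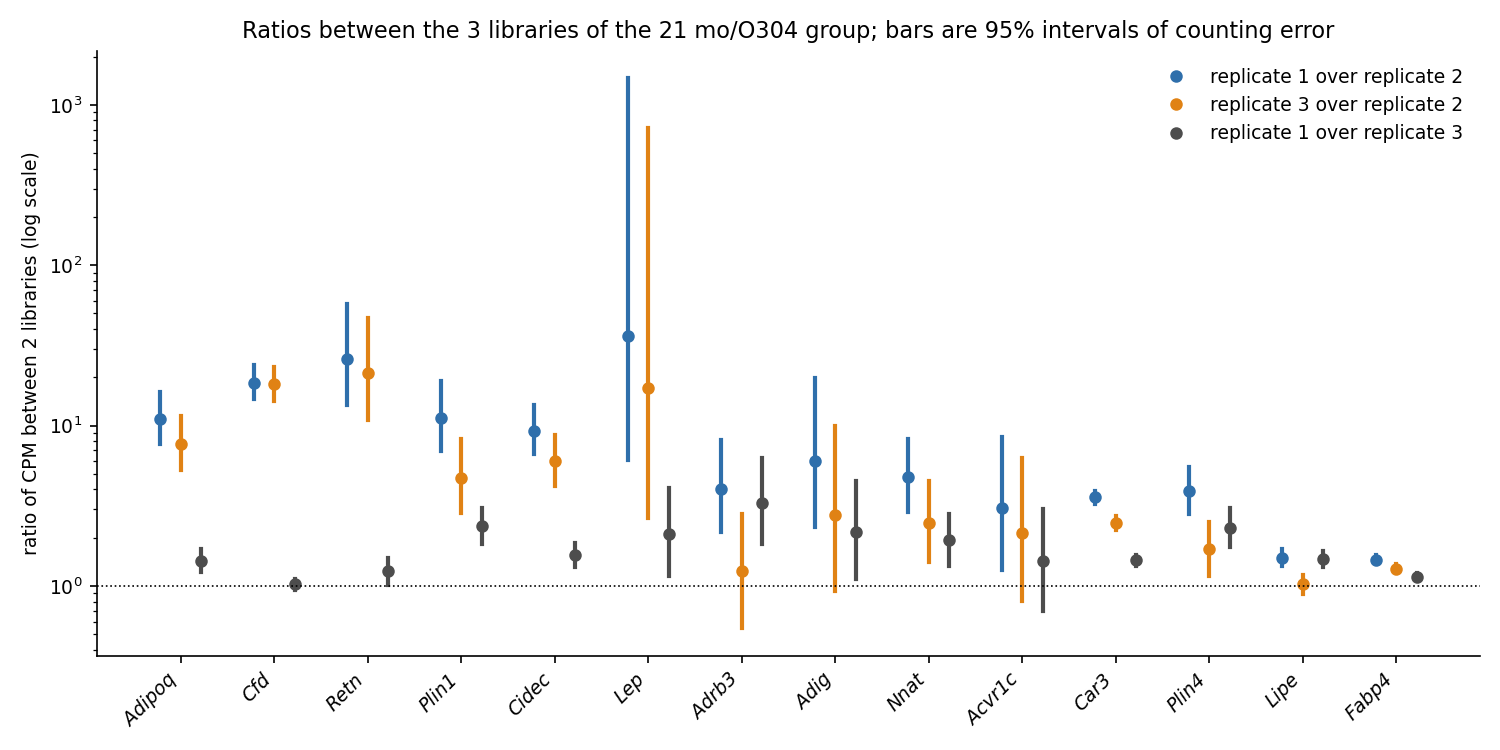
Ratios of CPM between the 3 libraries of 21 mo/O304 (vertical axis, log scale) for 8 of the 10 genes and 6 other white fat genes chosen after their values were seen; bars are 95% intervals of counting error and the dotted line marks a ratio of 1. Cfd and Retn have the steepest steps from replicate 2 to replicates 1 and 3 among genes with narrow intervals, and Lipe and Fabp4 lie near a ratio of 1. The rest of the white fat list is not shown. There Cebpa and Slc2a4 were lower in replicate 3 than in replicate 2, and other genes differed in either direction.

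The shares of the 5 genes in their summed counts were compared in the 5 libraries with at least 50 such counts. Cfd made up 53.3% (51.4 to 55.3%, exact binomial interval) in replicate 1 of 21 mo/O304, 42.0% (34.5 to 49.8%) in replicate 2 and 63.0% (60.8 to 65.2%) in replicate 3, 3 intervals without overlap. Its share was 49.3% (41.1 to 57.6%) in replicate 3 of 18 mo and 59.4% (50.5 to 67.8%) in replicate 3 of 21 mo. Plin1 was 8.58% (7.51 to 9.74%) and 4.40% (3.52 to 5.42%) of the sum in replicates 1 and 3 of the O304 group, 12% (7.27 to 18.3%) in replicate 3 of 18 mo and 1.5% (0.183 to 5.33%) in replicate 3 of 21 mo. Retn was 2.67% (0.731 to 6.69%) of the sum in replicate 3 of 18 mo but 15.8% (10.05 to 23.1%) in replicate 3 of 21 mo, with 9.49% (8.37 to 10.7%) and 9.32% (8.05 to 10.7%) in the high O304 libraries. The shares of Cfd, Plin1 and Retn thus differed between libraries by more than counting error. In libraries with few such counts, Cidec counted apart from the other genes would also shift these shares. Whether mice differ this much in the makeup of a single fat depot was not tested.

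**Figure D3:**
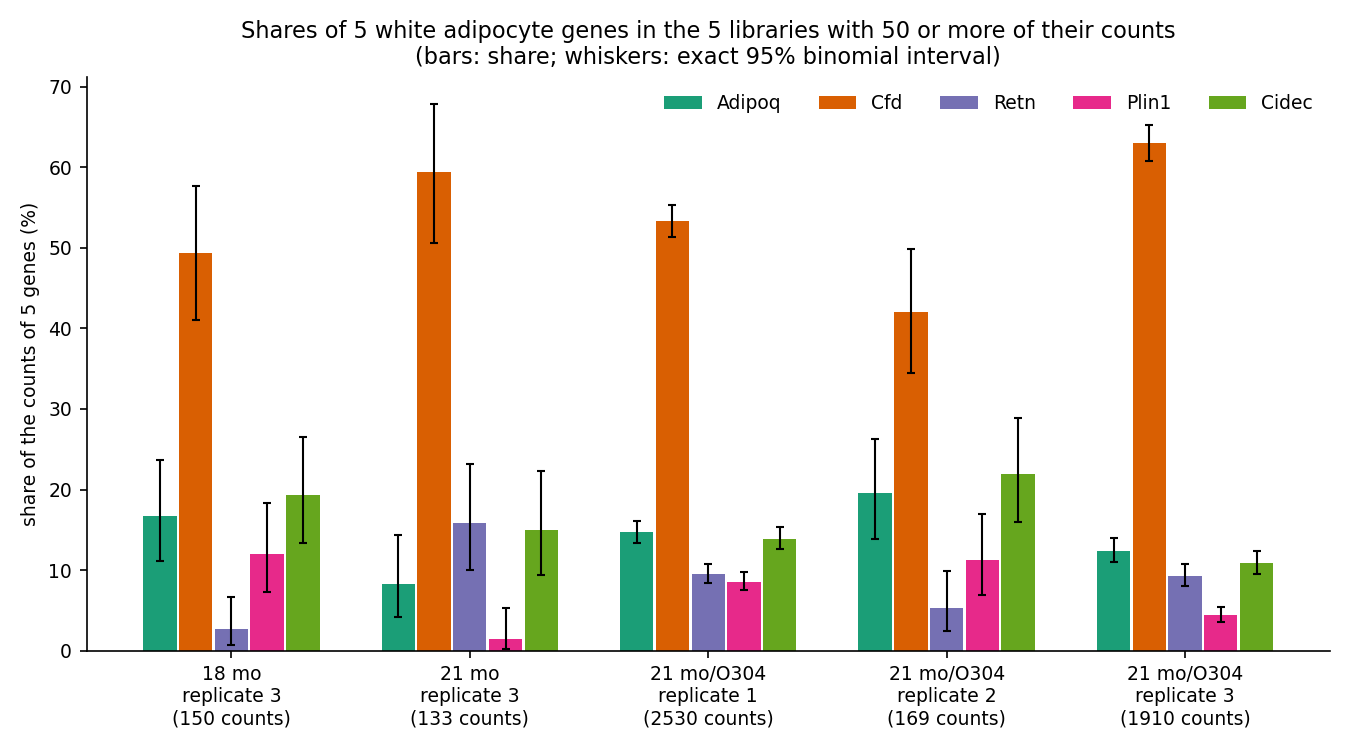
Share of each of 5 white adipocyte genes in their summed counts (vertical axis, percent) in the 5 libraries with at least 50 of these counts; bars are shares and whiskers exact 95% binomial intervals, with the summed counts under each library. Cfd is the main gene in each, from 42.0% to 63.0%, and Plin1 ranges from 1.5% to 12%.

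Lipe, Fabp4 and Car3, which kidneys without O304 also contained, moved by other amounts. Between replicates 2 and 1 of the O304 group the level of Cfd differed by 74.2 CPM, that of Car3 by 79.5 CPM, that of Fabp4 by 46.6 CPM and that of Lipe by 14.2 CPM. Between replicates 2 and 3 the difference for Cfd was nearly as large, 72.4 CPM, while it was 45.6 CPM for Car3, 28.3 CPM for Fabp4 and 0.651 CPM for Lipe. Lipe in replicate 2, at 28.2 CPM, lay above every untreated library, as Adipoq, Cfd, Plin1 and Cidec did there and Retn did not. Car3 in replicate 2, at 31.0 CPM, likewise exceeded each 21 mo library. In bulk tissue, more adipocytes and more RNA of these genes per cell cannot be told apart.

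A list of 18 other white adipocyte genes, written with earlier results of these data known, showed how far the pattern extended. Of these, 14 passed the filter, 0 rose and 0 fell at an adjusted p under 0.05 in edgeR, and 3 had an unadjusted p under 0.05 (5 called by limma voom, 0 by DESeq2). Over all tested genes the share with such a p was 20.7%, and limma voom called 41.1% and DESeq2 6.45%, so the list was near or under that background. In 21 mo/O304 against 21 mo 11 were higher and 3 lower, with a median log2 fold change of 0.50 against −0.02 for all tested genes and 4.16 for the 8 members that passed. Groups did not overlap, with O304 higher, for 2 of the 14, Adrb3 and Hcar1, where 10.8% of all tested genes met that condition. For the 8 members that passed it was 6, from which nothing is read, since that contrast chose them. Nor is anything read from Adrb3, which passed the filter only through the O304 group. It had 54, 13 and 15 counts there and at most 6 in any other library.

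Of the 18 genes, 9 ran in the order replicate 1, replicate 3, replicate 2 within the O304 group (50%, against 15.5% of all genes), among them some that untreated kidneys hardly contained. Lep, which encodes leptin and like Adig, Acvr1c and Nnat was picked after its values were seen, was counted 0, 0 and 2 times in 18 mo, 0, 0 and 0 times in 21 mo, and 37, 1 and 16 times in 21 mo/O304. Against a floor of 3 counts in 21 mo it was at least 19.7-fold higher under O304, and replicate 2 was at the untreated level. Acvr1c, a receptor for activin-like ligands in fat, had 0 counts in each 21 mo library and 22, 7 and 14 under O304, at least 15.7-fold higher. Adig, a small protein of the adipocyte droplet, had 5 counts in the 21 mo group and 49 under O304, a ratio of 10.7 (4.30 to 34.5). Adrb3, the β3-adrenergic receptor of adipocytes, had 0, 0.170 and 0.0916 CPM in 21 mo and 3.14, 0.775 and 0.955 CPM under O304, for which the log2 fold change was 4.06 (SE 1.16, edgeR adjusted p = 0.175), or 3.14 without replicate 1 of 21 mo/O304 and 4.77 without replicate 2 of 21 mo. For Nnat, which encodes neuronatin, the log2 fold change was 2.16 (SE 0.84, edgeR adjusted p = 0.208).

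The 3 genes of the list with the highest levels gave smaller differences. Cebpa, a transcription factor of adipocyte differentiation, had 43.4 ± 3.79, 45.9 ± 1.09 and 50.2 ± 14.4 CPM (SD, n = 3) in 18 mo, 21 mo and 21 mo/O304, and its log2 fold change against 21 mo was 0.13 (SE 0.19, edgeR adjusted p = 0.689). Slc2a4, the insulin-responsive glucose transporter, had a value of 0.07 on that scale (SE 0.31, edgeR adjusted p = 0.914). Pde3b, the phosphodiesterase through which insulin restrains lipolysis, had −0.79 (SE 0.25, edgeR adjusted p = 0.18). Pparg, the master regulator of adipocyte formation and a gene picked after its values were seen, had 3.95, 1.55 and 0.891 CPM in the O304 libraries and 2.94, 1.82 and 5.77 CPM in 21 mo, so that replicate 3, with its high Cfd and Adipoq, had less Pparg than any library but replicate 2 of 18 mo, at 0.616 CPM. The summed level of the 18 genes was 200 CPM in replicate 1 of the O304 group but 128 and 112 CPM in replicates 2 and 3, against 120 to 142 CPM in the untreated libraries. Cebpa, Slc2a4 and Pde3b made up most of it, so the scarce genes of the list hardly show in this sum. Of the 18, 12 were highest of all libraries in replicate 1 of the O304 group.

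Among 25 other genes of brown and beige adipocytes, 11 passed the filter, 12 had 10 counts or fewer in every library, and Zic1 and Lhx8, markers of classical brown fat, had no count in any library. In 21 mo/O304 against 21 mo 8 of the 11 were higher and 3 lower, 0 passed the edgeR test, 2 had an unadjusted p under 0.05 (1 called by DESeq2, 6 by limma voom, where all tested genes gave 20.7%, 6.45% and 41.1%) and the median log2 fold change was 0.34. The list genes with the highest levels, Gk, Gmpr and Esrrg, were abundant in untreated kidneys too, with 589, 103 and 72.7 CPM as means of 18 mo. The log2 fold change of Gk, glycerol kinase, was 0.75 (SE 0.57, edgeR adjusted p = 0.450), that of Gmpr, an enzyme of purine recycling, 0.31 (SE 0.15, edgeR adjusted p = 0.261) and that of Esrrg, an orphan receptor of oxidative tissues, 0.38 (SE 0.32, edgeR adjusted p = 0.489). In all, 6 of the 25 genes were highest in replicate 1 of the O304 group and 3 ran in the order replicate 1, replicate 3, replicate 2. Ucp1, Zic1 and Lhx8 thus had 0 counts in replicates 1 and 3 of the O304 group, the libraries with the most Adipoq, where a count of 0 allows a level of up to 0.174 and 0.191 CPM.

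**Figure D4:**
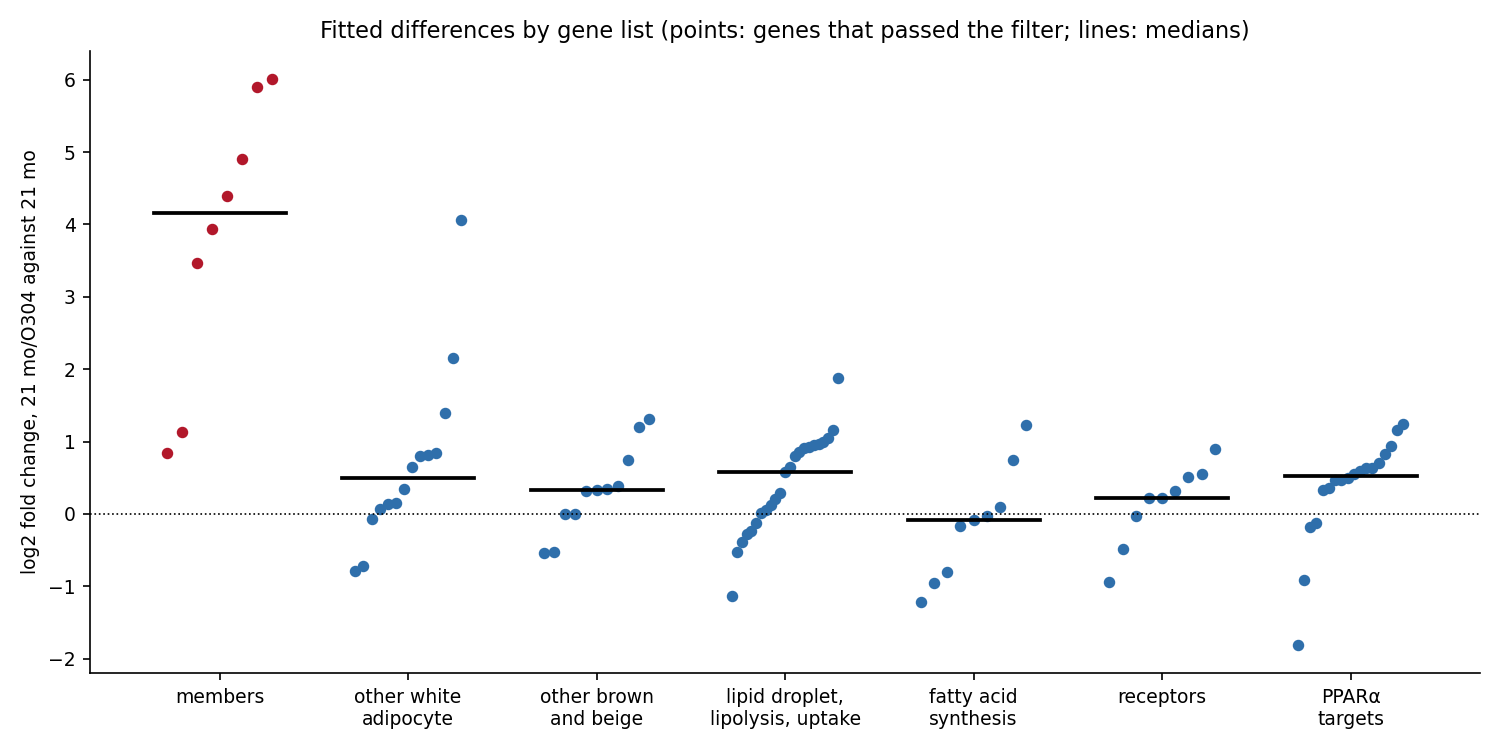
Fitted log2 fold change in 21 mo/O304 against 21 mo (vertical axis) of the genes that passed the filter in each list; points are genes, horizontal lines are medians and the dotted line marks 0. The 8 members, chosen in this comparison, have a median of 4.16, and the medians of the other 6 lists shown, all of fat or lipid genes, lie between −0.08 and 0.58.

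The wider lipid genes were summarised by list, and 0 genes of each list rose or fell in the edgeR test against 21 mo. Of 23 genes of lipid droplets, lipolysis and fatty acid uptake, 17 were higher and 6 lower with a median log2 fold change of 0.58, 9 had an unadjusted p under 0.05, and DESeq2 called 2 and limma voom 16. Of all tested genes 20.7% had such a p, and 6.45% and 41.1% were called by these tools. In 21 mo/O304 against 18 mo 13 genes of the list were higher and 10 lower, with a median of 0.02, and the median was −0.42 in 21 mo against 18 mo. The list summed to 2553 CPM in replicate 1 of 21 mo, but to 1659 and 1168 CPM in replicates 2 and 3, where kidney markers were low. The part of these 2 libraries in the differences of the list was not tested. Lpl, lipoprotein lipase, which frees fatty acids from circulating triglyceride, had 547, 176 and 182 CPM in 21 mo and 1020, 1100 and 1206 CPM under O304, and its log2 fold change was 1.88 (SE 0.47, edgeR adjusted p = 0.175). Those O304 libraries were nearly level, unlike for Adipoq, and 18 mo libraries, at 709 to 1387 CPM, overlapped them. The log2 fold change was 1.16 for Cd36, the fatty acid transporter (SE 0.58, edgeR adjusted p = 0.281), and 1.00 for Gpd1, which makes the glycerol backbone (SE 0.43, edgeR adjusted p = 0.234). Against 18 mo the values under O304 were 0.19 (SE 0.45) for Lpl, 0.45 (SE 0.58) for Cd36 and −0.36 (SE 0.43) for Gpd1.

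Of 9 fatty acid synthesis genes, 3 were higher and 6 lower, with a median of −0.08 and 5 at an unadjusted p under 0.05, where 20.7% of all tested genes had one. The log2 fold change was 1.23 for Me1, malic enzyme (SE 0.53, edgeR adjusted p = 0.235), −0.17 for Scd1, a desaturase (SE 0.68, edgeR adjusted p = 0.900, and 0.83 without replicate 1 of 21 mo), and 0.09 for Acly, which makes cytosolic acetyl-CoA (SE 0.17, edgeR adjusted p = 0.746). Of 18 PPARα targets, which a nuclear receptor for fatty acids induces in the kidney tubule, 14 were higher and 4 lower with a median of 0.53. An unadjusted p under 0.05 was found for 4, and DESeq2 called 2 and limma voom 9, where these tools called 6.45% and 41.1% of all tested genes. Ehhadh, of peroxisomal oxidation, had 1.25 (SE 0.55, edgeR adjusted p = 0.239) and Acadm, of mitochondrial oxidation, 0.83 (SE 0.54, edgeR adjusted p = 0.376). The receptors that read fat signals were expressed in all groups, 6 of 9 higher and 3 lower with a median of 0.22 and 2 at an unadjusted p under 0.05. The log2 fold change was 0.22 (SE 0.13, edgeR adjusted p = 0.350) for the adiponectin receptor Adipor1, −0.03 (SE 0.14, edgeR adjusted p = 0.910) for Adipor2 and 0.32 (SE 0.21, edgeR adjusted p = 0.379) for the insulin receptor Insr.

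Between the untreated groups the fitted values of the fat genes lay on both sides of 0. Of the 8 that passed the filter, 4 were higher and 4 lower in 21 mo than in 18 mo, with a median log2 fold change of −0.15. Nothing is read from this count, since the O304 group carried Adipoq, Retn and Plin1 through the filter. Fabp4 is counted as higher at 0.004 (SE 0.47). Retn had 2.25 (SE 1.77) and Cfd 0.31 (SE 1.5), whereas Adipoq had −1.18 (SE 1.64), Plin1 −1.93 (SE 1.49) and Lipe −0.30 (SE 0.18). For Adipoq, Cfd and Plin1 these values rested on replicate 3 of 18 mo, which held all 25 counts of Adipoq, all 74 of Cfd and 18 of 19 of Plin1 in its group. Without that library the fitted values were 4.89, 7.92 and 1.39, set against groups at or near 0 counts and no measure of size. Without replicate 3 of 21 mo, Adipoq had −3.70, Cfd −0.93 and Retn 0.17. Replicate 3 of 18 mo also had all 4 counts of Retn, all 7 of Cidea and all 6 of Ucp1 of its group.

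Against 18 mo, the O304 libraries had fitted log2 fold changes of 4.72 (SE 1.41) for Adipoq, 5.21 (SE 1.53) for Cfd, 6.64 (SE 1.62) for Retn and 3.81 (SE 0.95) for Cidec. The comparison shares its O304 libraries with the one that chose the genes. Fabp4 had 0.85 (SE 0.47), and its O304 libraries lay above all 18 mo libraries. Leaving out replicate 1 of the O304 group lowered these values to 4.12, 4.82, 6.10, 3.18 and 0.72. Without replicate 3 of 18 mo, which left that group with few or no counts of them, Adipoq had 10.8, Cfd 12.8, Retn 10.2 and Cidec 4.77 on that scale, and Plin1 7.39.

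Over the 9 libraries, the genes whose log2 CPM most resembled the mean of the 8 tested members were 1110002J07Rik and Adrb3 (Pearson r = 0.956 each), then Gm8034 (0.938), Gm32391 (0.928), Mterf4 (0.917), 9130023H24Rik (0.913), Rbm48 (0.913), Retnla (0.909), Plin4 (0.894) and Fadd (0.879). These correlations describe 9 libraries that share their groups, and 2 of the 10 genes, Adrb3 and Plin4, are on the white fat list. Retnla, which encodes a resistin-like protein of macrophages and fat, had 0 counts in each 21 mo library and 20, 12 and 60 under O304. Unlike the members, Retnla was highest in replicate 3. Plin4, a droplet coat protein of adipocytes, had 10.8, 2.74 and 4.65 CPM under O304 and 1.07, 3.18 and 2.61 CPM in 21 mo, so its groups overlapped (log2 fold change 1.39, SE 0.64, edgeR adjusted p = 0.253).

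The other tissues that a kidney sample might carry moved in their own ways. Mesothelium markers summed to 3.82 to 7.37 CPM in 18 mo, 6.29 to 113 CPM in 21 mo and 5.29 to 11.9 CPM under O304, with 3 of 5 tested and Lrrn4 at 0 in 18 mo. The 8 markers of adipocyte precursors summed to 706 to 877, 663 to 1018 and 679 to 1140 CPM in the same order, of which 7 were tested and 0 passed in edgeR (0 with an unadjusted p under 0.05). Red cell markers, which depend on blood left in the kidney, ranged from 4.08 to 882 CPM in 21 mo and from 31.2 to 225 CPM under O304. The part of these tissues in the levels of the fat genes was not tested.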

How the data were processed

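Kidney RNA of 9 mice (18 mo, 21 mo and 21 mo/O304, 3 each) was sequenced, 1 library per mouse, and samples were grouped by their titles. Per the paper's methods, the authors filtered paired-end reads, aligned them with HISAT2 2.0.5 and counted them with featureCounts 1.5.0-p3, which gave the deposited table of raw counts per gene. The submitters' processing notes name GRCm38 (mm10). Strand setting and treatment of multi-mapped reads were not given in the sources used here. For FPKM, the authors state gene length and read count as the inputs. The deposited signal columns are group means normalized by the authors with DESeq2 1.20.0, and beside them stand the authors' log2 fold changes and the authors' p-values for 21 mo against 18 mo and 21 mo/O304 against 21 mo; none of these was used.

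From the counts, libraries of 15636378 to 18396725 reads were scaled by TMM. Of 54532 genes, 15902 passed edgeR's filterByExpr (minimum count 10, minimum total 15) and were tested in R 4.3.3 with edgeR 4.0.16 (quasi-likelihood) with 3 group means over all 9 libraries and 6 residual degrees of freedom, two-sided, with Benjamini-Hochberg adjustment over all tested genes. Log2 CPM used a prior count of 2. Standard errors were derived from the fitted log2 fold change and its F statistic. Ratios of summed counts have exact conditional binomial 95% intervals and shares have exact (Clopper-Pearson) ones (scipy 1.17.1), and a group with 0 counts was set to a floor of 3 counts over the group. DESeq2 1.42.0 and limma voom with sample quality weights (limma 3.58.1) were alternatives, beside upper-quartile scaling, a fit of each gene that had any count, only the 6 libraries compared, a replicate block, FPKM for the summed level and leaving out each library. The scripts were tested on simulated data.

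The 10 genes and all lists were chosen with earlier results of these data known. Named beside the 10 genes were, from each lipid or fat list, up to 5 called genes or, where none was called, the 3 tested genes of highest mean CPM, then white and brown fat genes without a count, and the 10 genes most correlated with the mean of the tested members. A gene that this rule named is not reported here. Lists of other tissues are given by their summed levels. Lep, Adig, Acvr1c, Nnat, Pparg, Pvalb, Hcar1 and the markers at 0 were named after their values were seen. Coordinates are those of the deposited table, and all 10 genes matched RefSeq GRCm38.p6 by symbol and position. The replicates of a group come from separate mice.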

Additional observations from a re-analysis of the deposited data

How the results depend on the processing

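The number of genes called depended on the tool and on single libraries. In 21 mo/O304 against 21 mo, where the edgeR test called 0, DESeq2 called 983, edgeR on every gene with at least 1 count 17 and limma voom with sample quality weights 6528. Leaving out 1 library gave 0 to 3808, with 3808 without replicate 1 of 21 mo. In 21 mo against 18 mo, where it called 3, these gave 2283, 576 and 8409, with 0 for only the 6 libraries compared and 0 to 4186 when 1 library was left out (4186 without replicate 1 and 130 without replicate 3 of 21 mo). In 21 mo/O304 against 18 mo, where it called 0, DESeq2 called 233, the 6 libraries alone 22 and limma voom 415, with 0 to 12 when 1 library was left out (12 without replicate 3 of 21 mo). Of the other white adipocyte genes, 0 were called by edgeR, 5 by limma voom and 0 to 2 without 1 library. Of the other brown and beige genes, 0 were called by edgeR, 1 by DESeq2, 6 by limma voom and 0 to 5 without 1 library. Both upper ends were without replicate 1 of 21 mo. The cause of these differences was not tested.

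Deviations of same-numbered libraries from their group means correlated at −0.13 to 0.17. Pairs with unlike numbers were not computed, so these values do not show whether the replicate numbers carry a pairing. With the replicate block, edgeR called 0 genes in 21 mo against 18 mo and 0 in each comparison with O304.

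Over the alternative runs, the log2 fold change against 21 mo ranged from 5.30 to 8.40 for Adipoq, 4.46 to 6.12 for Cfd and 3.85 to 6.45 for Retn. The ranges were 4.85 to 6.50 for Plin1, 2.51 to 3.95 for Cidec, 0.90 to 1.23 for Lipe, 0.49 to 1.60 for Fabp4 and 2.88 to 4.73 for Car3. Nothing is read from the positive sign of these 8 members, since that comparison in the same libraries chose them. The log2 ratio of the summed level of 8 members (without Ucp1 and Car3) was 1.51 against 21 mo and 1.46 against 18 mo in CPM. In deposited FPKM, which divides by gene length, it was 2.45 and 2.43. Under O304 the mean of Fabp4, divided by its whole span, was 126 CPM but 27.2 FPKM, and that of Cfd was 53.1 CPM and 55.9 FPKM. Fabp4, with a log2 fold change of 0.85 against 21 mo where Cfd had 4.90, thus has less weight in the FPKM sum. Leaving out 18 mo replicate 3 gave Adipoq, Cfd and Plin1 positive values in 21 mo against 18 mo. Depth limits Ucp1 and Cidea, with at most 6 and 14 counts in a library.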
